A study of Arabidopsis thaliana with 5 samples.

Results

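Regions called for JACKDAW (JKD) in whole Arabidopsis thaliana roots came from chromatin immunoprecipitation followed by sequencing (ChIP-seq). The list described here holds all 21985 regions of the JKD_YFP group, taken without selection, and each was ranked by the mean log2 of its 2 density values. The group comprised 2 libraries from Columbia plants that express JKD fused to yellow fluorescent protein, and the same series holds 1 wild-type control library from Columbia plants without a fusion and 2 libraries of the related factor BLUEJAY (BLJ), 5 in all. Both kinds of root were grown on the same sucrose medium, fixed with formaldehyde and precipitated with the same antibody against green fluorescent protein, which also recognises the yellow variant. The labels place the JKD fusion in the ground tissue and in the stem cell organizer (QC), and give neither the promoter that drives it nor the number of transgenic lines, the plants' age or whether they still carry an intact JKD gene. Whole roots were ground, so other cell types contributed DNA as well, and density in this mixture cannot tell fewer bound cells from less binding per cell.

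JKD is a C2H2 zinc finger transcription factor of the INDETERMINATE DOMAIN (IDD) family. It acts with the GRAS transcription factors SHORT-ROOT (SHR) and SCARECROW (SCR) to keep SHR in the endodermis and to set the layers of the ground tissue, and it influences the fate of the overlying epidermis from the cortex. IDD proteins contact DNA through their zinc fingers and can also bring GRAS proteins to DNA.

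Each region had 2 density values, named here the first-listed and the second-listed, because the order of the replicates is not given in the sources used here, and an irreproducible discovery rate (IDR), which is low where both replicates rank a region high and alike. The sample sheets place replicate 1 and the control in lane 5 of a flow cell and replicate 2 in lane 2 of another. The labels' protocol instead speaks of a single lane. By the sheets, a difference between the replicates cannot be told apart from a difference between flow cells. Depth per library is unknown, no wild-type values stand beside the regions, and all comparisons below are within the list. As there is a single list for the group, no test between samples was possible, and the 95% Wilson intervals given for shares cover counting error only.

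The regions covered 27.0 Mb, or 22.6% of the 119 Mb that the 5 nuclear chromosomes span up to their last gene or region, with a median width of 906 bp. The middle 50% of widths lay between 583 and 1479 bp, the narrowest region had 110 bp, and 3108 regions (14.1%) were wider than 2000 bp. Only 569 regions (2.59%) exceeded 4000 bp and 20 exceeded 10000 bp. Neighbouring regions stood close together, with a median gap of 1783 bp, and 7512 of 21980 gaps (34.2%) were shorter than 1000 bp.

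The 5 chromosomes carried regions at nearly the same rate per length. Chromosome 1 held 5589 regions, chromosome 2 held 3561, chromosome 3 held 4379, chromosome 4 held 3379 and chromosome 5 held 5077. These numbers correspond to 180.8 regions per Mb on chromosome 2 at the lowest and 188 per Mb on chromosome 5 at the highest. Cover was between 22.3% on chromosome 1 and 23.5% on chromosome 2. The values for chromosome 2 include a block of 190.6 kb covered to 95.2%, described below. Median widths ran from 888 bp on chromosome 5 to 935 bp on chromosome 2. Chromosome 2 also had the largest share of its regions among the densest 10% of the list, at 12.6%, where chromosome 3 had the smallest, at 9.02%.

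Along the chromosomes the number of regions went with the number of genes. Across 121 windows of 1 Mb the Spearman correlation of region number with the number of protein-coding genes was 0.905, as a description over windows that differ in gene content. The windows held between 2 and 307 regions with a median of 201. The emptiest window of each chromosome held 6 regions on chromosome 1 (Mb 14 to 15), 18 on chromosome 2 (4 to 5), 6 on chromosome 3 (13 to 14), 5 on chromosome 4 (3 to 4) and 2 on chromosome 5 (11 to 12), all in the gene-poor surroundings of the centromeres. These windows held between 15 and 58 protein-coding genes.

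The 2 density values agreed only in part. The second-listed value was the larger in 21935 of 21985 regions, and the first-listed was at or above it in 50. The median was 1.09 for the first-listed value, with 90% of regions between 0.991 and 1.30, and 1.49 for the second-listed value, with 90% between 1.26 and 1.99. No region had a second-listed value below 1, while 1894 regions (8.61%) had a first-listed value below 1. The Spearman correlation of the 2 values across regions was 0.407, and within single chromosomes it was between 0.399 and 0.414. Of the 2199 regions in the highest 10% by the first-listed value, 793 (36.1%) were also in the highest 10% by the second. In the highest 1%, 41 of 220 (18.6%) were shared. The IDR had a median of 0.141, and 3892 regions (17.7%) had an IDR at or below 0.05 and 965 (4.39%) at or below 0.01.

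**Figure D1:**
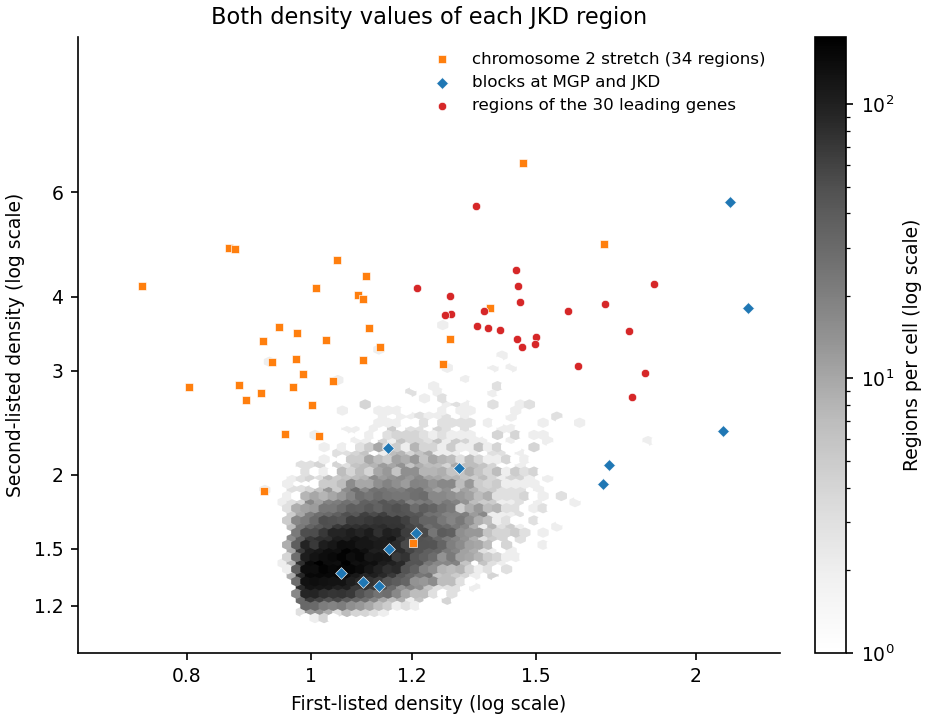
First-listed (x axis) against second-listed (y axis) density of all 21985 JKD regions on log scales, with grey cells shaded by the number of regions. The regions of the 30 leading genes (red circles) and the 34 regions of a stretch of chromosome 2 (orange squares) lie mostly above the main cloud, the latter with a median first-listed value of 1.01, and blue diamonds mark the blocks at MGP and JKD.

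Width went with density in both values. Across regions, width had a Spearman correlation of 0.325 with the first-listed value. The correlation with the second-listed value was 0.429. Regions that covered at least 80% of the length of a protein-coding gene numbered 3232 outside 3 wide blocks (runs of 40000 bp windows covered to at least 90%, described below). Their median densities were 1.13 and 1.63, first-listed and second-listed in that order, and their median width was 2300 bp. The 16000 regions that overlapped a smaller part of a gene had medians of 1.09 and 1.46 and a median width of 846 bp. The 2721 regions that overlapped no protein-coding gene had medians of 1.10 and 1.52 at a median width of 620 bp. The order differed with width. Among regions of 500 to 1000 bp those without a gene had the highest medians, 1.12 and 1.57, and among regions of 1000 to 2000 bp again, at 1.15 and 1.61, against 1.13 and 1.59 for those spanning a gene and 1.11 and 1.51 for those overlapping part of one. Among regions of 2000 to 4000 bp those spanning a gene were highest, at 1.13 and 1.64, against 1.12 and 1.61 for the 28 regions without a gene. The ranges of the middle 50% of regions overlapped between all 3 kinds.

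Most regions lay in genes, and the densest ones less often than the others. Midpoints fell inside protein-coding genes in 78.3% of all regions, while such genes make up 54.1% of the genome. Among the least dense 10% of regions the share was 84.7% (95% Wilson interval 83.1 to 86.1), and among the densest 10% it was 67.5% (65.5 to 69.4). The share of regions that overlapped no protein-coding gene was 10.2% (8.99 to 11.5) in the least dense 10% and 17.2% (15.6 to 18.8) in the densest 10%. Regions that covered at least 80% of a gene made up 1.82% (1.34 to 2.47) of the least dense and 34.7% (32.7 to 36.7) of the densest. The median widths of these groups were 481 and 1345.5 bp, and the part of width in these shares was not tested.

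The 2 values drew these kinds differently. In the highest 10% by the first-listed value, 19.99% of regions (18.4 to 21.7) covered at least 80% of a gene, and in the highest 10% by the second-listed value 38.8% did (36.8 to 40.9). The share without a gene was nearly the same, at 17.5% (16.0 to 19.2) and 17.5% (16.0 to 19.1). The share of midpoints inside genes was 67.6% (65.6 to 69.5) and 68.4% (66.4 to 70.3). The share of midpoints inside genes was below that of the whole list with either value, and whole-gene cover was higher with the second-listed value. Over the whole list such sets share 793 of 2199 regions, so the intervals of the 2 shares do not measure their difference. Median widths were 1123 bp by the first-listed and 1424.5 bp by the second-listed value, and the part of width was not tested.

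**Figure D2:**
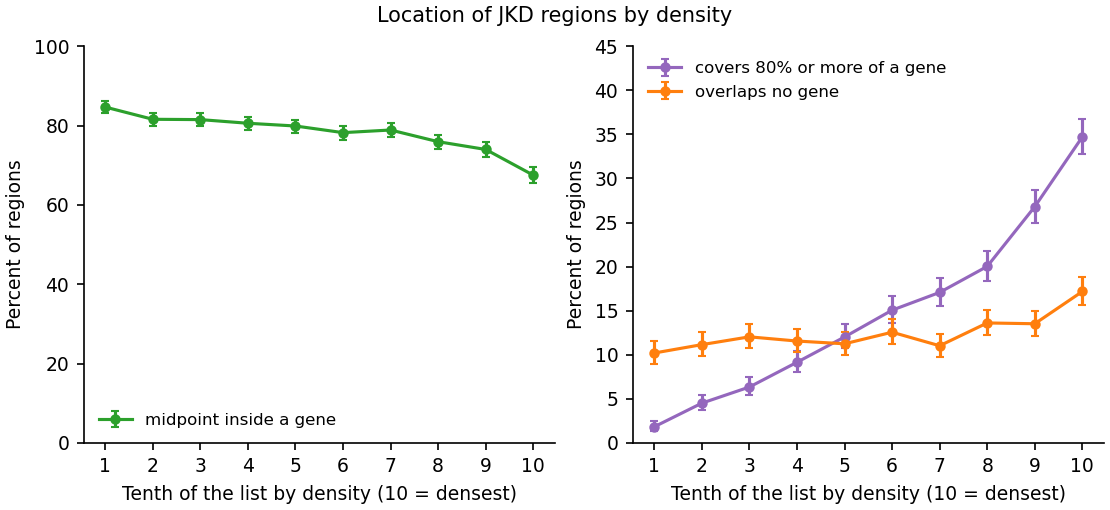
Percent of JKD regions outside wide blocks (y axis) in 10 groups of equal size by density (x axis), with 95% Wilson intervals as error bars. In the least dense and the densest group, midpoints inside genes made up 84.7% and 67.5%, regions covering at least 80% of a gene 1.82% and 34.7%, and regions overlapping no gene 10.2% and 17.2%.

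Around gene edges, cover was highest just inside the gene. Over 28814 edges of 14407 protein-coding genes of at least 2000 bp, with both ends pooled because strand was not used, cover by all regions was 27.9% in the outermost bin of 100 bp, 2000 bp outside the edge. It reached 37.5% at 400 to 500 bp inside. For the densest 10% of regions the highest cover, 4.92%, lay at 200 to 300 bp inside and cover was still 4.20% at 900 to 1000 bp outside. The least dense 10% had their lowest cover, 1.10%, at 300 to 400 bp outside the edge and their highest, 1.95%, at 500 to 600 bp inside. Regions without a gene had a median distance of 744.5 bp to the nearest protein-coding gene, and 1656 of 2722 lay within 1000 bp.

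**Figure D3:**
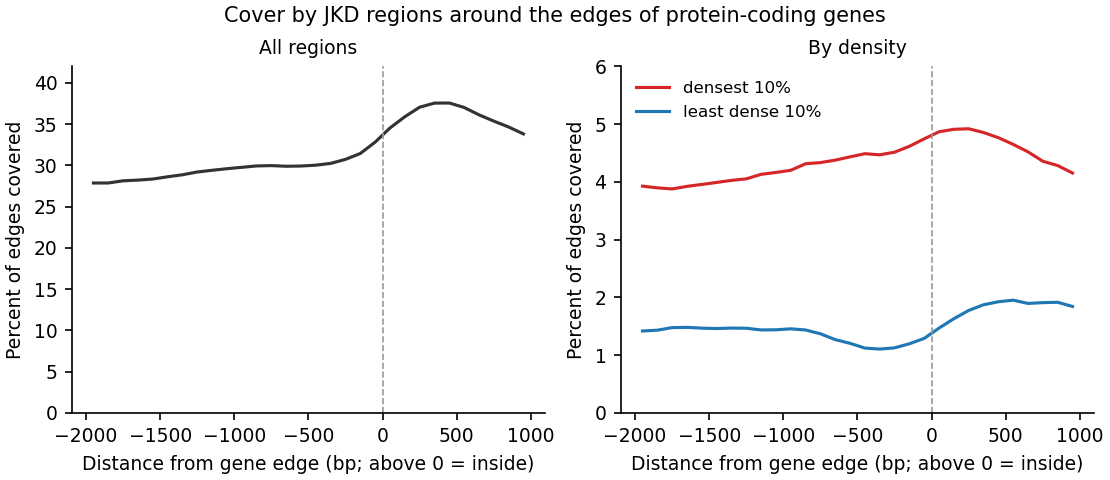
Percent of gene edges covered by JKD regions (y axis) against distance from the edge in bp, with positions above 0 inside the gene, for all regions (left) and for the densest and least dense 10% (right). Cover by all regions is 27.9% farthest outside and 37.5% at its highest inside the gene, and that of the least dense regions is lowest just outside the edge, at 1.10%.

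Of 27444 protein-coding genes, 17921 (65.3%) were overlapped by a region and 21082 (76.8%) lay within 1000 bp of one. Most of the overlapped genes, 12504, had 1 region, 4394 had 2 and 1023 had 3 or more. The largest number was 8, on AT1G48090, a gene of 26499 bp. Longer genes were overlapped more often, from 40.04% (38.8 to 41.3) in the shortest 20% of genes to 79.3% (78.2 to 80.4) in the longest 20%. Genes within 1000 bp of a region of the densest 10% (13.2% of all) depended less on length, from 10.4% (9.61 to 11.2) to 14.9% (13.9 to 15.8). Among genes of other classes, 335 of 625 tRNA genes (53.6%, 49.7 to 57.5), 121 of 287 small nucleolar RNA genes (42.2%, 36.6 to 47.9) and 1365 of 3480 long non-coding RNA genes (39.2%, 37.6 to 40.9) were overlapped. Only 291 of 3917 pseudogenes (7.43%, 6.65 to 8.29) were.

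The 30 protein-coding genes with the densest overlapping region outside the wide blocks, named here the strongest genic targets, shared 23 regions. The name rests on density and overlap alone, without control values. Their first-listed values lay between 1.21 and 1.85 and their second-listed values between 2.71 and 5.70, and the IDR was at or below 0.01 for 27 of the 30. In 18 of the 30 the region covered at least 80% of the gene. All were in the highest 1% by the second-listed value, whereas 16 were in the highest 1% by both. These values chose the genes and are given as a description.

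The densest genic region outside the blocks, on chromosome 4 (380218 to 382155), overlapped AT4G00893 and AT4G00895 with densities of 1.85 and 4.21 and an IDR of 0.000301. Next came CRK22 (AT4G23300), a cysteine-rich receptor-like kinase, where a region of 450 bp inside the gene (chromosome 4, 12182172 to 12182621) had densities of 1.35 and 5.70. This region was narrow, and its second-listed value was much further above the median than its first-listed value. AT2G25460 and its neighbour AT2G25450 on chromosome 2 were each covered whole, by adjoining regions with densities of 1.70 and 3.88 (10831970 to 10836494) and of 1.59 and 3.78 (10829841 to 10831868). A region on chromosome 3 (3055509 to 3059491, densities 1.77 and 3.50) covered all of MDHAR (AT3G09940), a monodehydroascorbate reductase that regenerates ascorbate, and reached 2 bp into AT3G09930.

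Regulators of RNA and transcription were among the 30. CAF1a (AT3G44260), a deadenylase that shortens mRNA tails, was covered whole with densities of 1.45 and 4.43. ERF4 (AT3G15210), a transcriptional repressor of the ethylene response factor family, had 1.46 and 3.92, and ERF104 (AT5G61600), of the same family, 1.496 and 3.33. CZF1 (AT2G40140), a CCCH zinc finger protein, had 1.21 and 4.14 with an IDR of 0.0288, the highest of the 30. RAP2.4 (AT1G78080), an AP2-type factor also known as WIND1 for its part in wound-induced dedifferentiation, was covered whole by a region of 4211 bp with 1.41 and 3.51. TPR1 (AT1G80490), a co-repressor of the TOPLESS family, differed from these in cover: its region of 1090 bp (chromosome 1, 30266904 to 30267993) overlapped only 3.52% of the gene at its edge, with densities of 1.82 and 2.97.

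Of the other genes among the 30, PYK10 (AT3G09260), a beta-glucosidase stored in endoplasmic reticulum bodies of roots, lay in a region of 5306 bp with densities of 1.38 and 3.54 that also covered AT3G09250. LRX3 (AT4G13340), a leucine-rich repeat extensin of the cell wall, had 1.45 and 3.397. EXL2 (AT5G64260), an EXORDIUM-like protein, had 1.46 and 3.29. AT2G30020, known as AP2C1, a protein phosphatase that acts on MAP kinases, had 1.29 and 3.74. NUDT4 (AT1G18300), a Nudix hydrolase, shared a region with AT1G18310 (1.36 and 3.78), and DIC2 (AT4G24570), a mitochondrial dicarboxylate carrier, shared a region with REN1 (1.27 and 3.73). PPR336, PAP21, AT1G61890, AT1G49500, AT3G44400, AT3G52800, AT4G37240 and AT4G37685 complete the 30. The order has no step at its end, since the next gene, AT1G11670, had 1.33 and 3.53, followed by 3 genes in a single region at 1.39 and 3.37 and by TIFY10B (AT1G74950), the jasmonate repressor JAZ2, at 1.46 and 3.21.

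**Figure D4:**
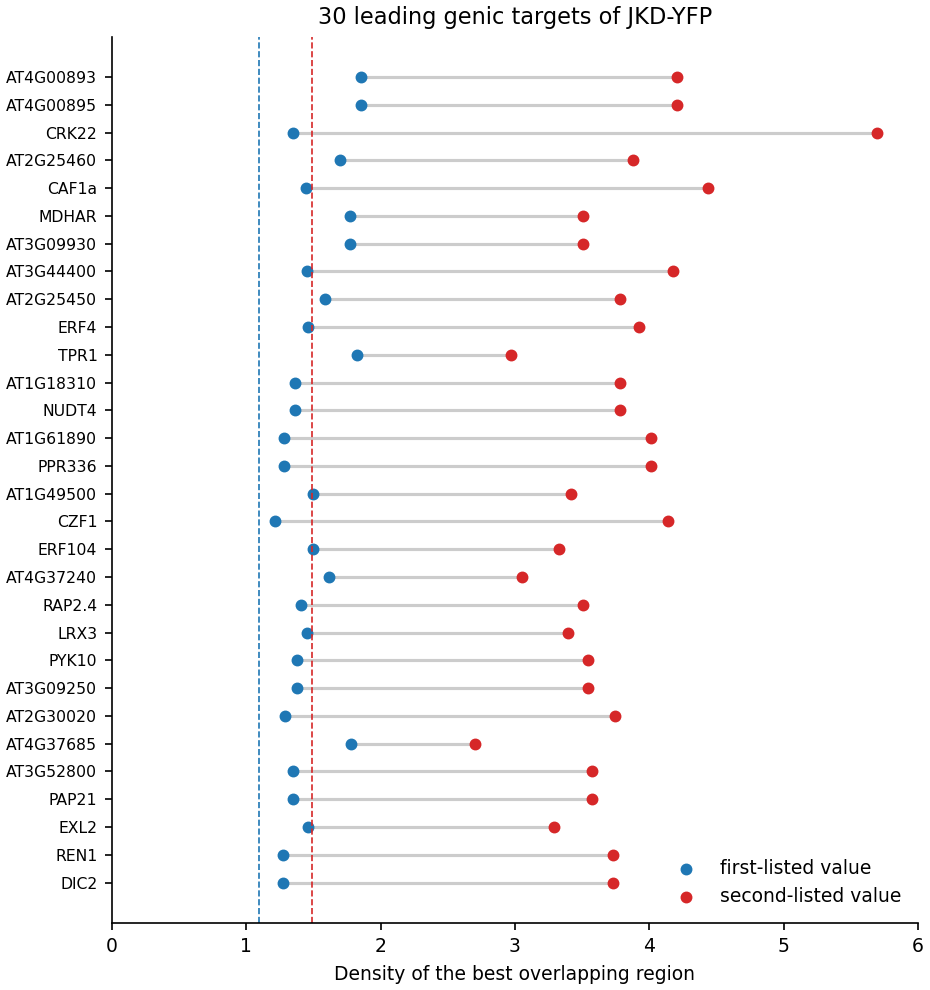
First-listed (blue) and second-listed (red) density of the best overlapping region (x axis) for the 30 leading protein-coding genes outside wide blocks, in order of rank. Dashed lines mark the medians of the whole list, 1.09 and 1.49, and each value lies above its own median, with first-listed values from 1.21 to 1.85 and second-listed values from 2.71 to 5.70.

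Which genes led depended on the value used. With the second-listed value alone 24 of the 30 stayed among the leading 30, and with the first-listed value alone 8 did. The leading gene by the first-listed value was AT2G25120, whose region on chromosome 2 (10689545 to 10690456) had densities of 2.15 and 1.67. RABA1c (AT5G45750), a small GTPase of vesicle traffic, followed further down with 1.84 and 2.44, AT5G24990 with 1.84 and 2.31 and MKK9 (AT1G73500), a MAP kinase kinase, with 1.80 and 2.33. Ranked by the lower of the 2 percentiles, which asks both values to be high, 16 of the 30 stayed. Among those that entered were SAG20 (AT3G10985, 1.54 and 2.98), CYP71B12 (AT5G25130, 1.73 and 2.59), ERF6 (AT4G17490, 1.45 and 2.62), ERF8 (AT1G53170, 1.45 and 2.58) and PIN3 (AT1G70940, 1.67 and 2.46), the auxin efflux carrier of columella and stele. LAX1 (AT5G01240), an auxin influx carrier, entered with 1.45 and 2.86 through a region that overlapped 53 bp of it, and AGL44 (AT2G14210), a MADS-box factor of the nitrate response, with 1.56 and 2.48.

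Regions between genes were also among the densest by both values. Outside the blocks, 37 regions were in the highest 1% by both values, with a median width of 1319 bp, and 13 of them overlapped no protein-coding gene. Of the 5 given here, those at ANNAT3 and BR6OX2 were chosen after their values were seen. A region of 933 bp on chromosome 4 (17537438 to 17538370, densities 1.93 and 3.35, IDR 0.000371) lay 2120 bp from MYB73 (AT4G37260). Beside WRKY47 (AT4G01720), a WRKY transcription factor, a region lay 291 bp from the gene with densities of 2.08 and 2.90. A region of 908 bp on chromosome 5 (24384032 to 24384939, 1.83 and 3.11) lay 1071 bp from AT5G60680. A region on chromosome 2 (16199314 to 16200523, 1.68 and 3.12) lay 421 bp from ANNAT3 (AT2G38760), an annexin. On chromosome 3 a region (11808213 to 11809565, 1.76 and 2.68) lay 1161 bp from BR6OX2 (AT3G30180), an enzyme of brassinosteroid synthesis. In each of these 5 both values were in the highest 1% of the list, with first-listed values above those of CAF1a, ERF4 and ERF104. Their second-listed values, from 2.68 to 3.35, were below those of CAF1a and ERF4. By this value only the region near MYB73 was above ERF104.

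The 10 regions of lowest IDR, between 0.000218 and 0.000508, comprised 3 in wide blocks and 7 already given, those at AT4G00893, AT2G25460, AT2G25450 and MDHAR and those beside MYB73, WRKY47 and AT5G60680. The 10 highest regions of the whole list included 4 that lie in wide blocks. The highest, of 57249 bp on chromosome 1 (972400 to 1029648, densities 2.13 and 5.78), and the third, of 17901 bp beside it (954322 to 972222, 2.20 and 3.83), form a block of 78.6 kb whose genes include MAGPIE (MGP, AT1G03840), another IDD gene. The block at JKD itself (AT5G03150) held a region of 28326 bp on chromosome 5 (735943 to 764268) with densities of 2.10 and 2.37. It is the fourth widest of the list, and its 2 values are closer to each other than those of the MGP block. In both blocks the first-listed value was above 2 in the widest region, a level reached outside blocks only at AT2G25120 and beside WRKY47. Because such blocks span many genes, their densities do not stand for single genes. The plants also carry a JKD fusion gene, and its part in the density at the JKD locus was not tested.

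A stretch of chromosome 2 set the 2 values furthest apart. From 3260990 to 3730569, which includes the wide block from 3297860 to 3488452, there were 34 regions, and the limits were set after seeing the values. Their second-listed values had a median of 3.32 (lowest 1.54, highest 6.73), and 30 were in the highest 1% of the list. Their first-listed values had a median of 1.01 (lowest 0.738, highest 1.70), and 23 were below the median of the list. The IDR was above 0.3 in 22 of the 34. A large insertion of mitochondrial DNA is known in this part of chromosome 2, and its part in these values was not tested. Of the 5 regions with the largest excess of the second-listed value, 3 lay in this stretch, at 0.738 and 4.17, 0.864 and 4.83, and 0.873 and 4.82. The other 2 were a region 807 bp from AT1G31255 with 1.09 and 7.48 (chromosome 1, 11171203 to 11171872, IDR 0.315) and a region at AT4G04265 with 0.7996 and 3.93 (IDR 0.339).

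The 5 regions with the largest excess of the first-listed value all lay partly in genes. AT2G25120 is given above. The others were AT2G26030 (1.55 and 1.25, IDR 0.321), HSFA6B (AT3G22830, 1.58 and 1.31), a heat shock transcription factor, XGD1 (AT5G33290, 1.49 and 1.27), a xylogalacturonan xylosyltransferase, and OTP51 (AT2G15820, 1.43 and 1.25), a pentatricopeptide repeat protein. Their first-listed values stood at percentile 98.8 or higher of the list. Their second-listed values stood at percentile 78.8 at AT2G25120 and between 3.53 and 12.1 at the others.

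Of the 10 widest regions of the list 7 lay in the blocks, and most of the wide regions covered runs of genes. Outside blocks the widest had 14312 bp on chromosome 1 (20123057 to 20137368, densities 1.14 and 1.87) over RAP2.12, a factor of the hypoxia response, and 4 other genes. A region of 13882 bp on chromosome 3 (9721947 to 9735828, 1.06 and 2.06) overlapped a single protein-coding gene, TIP2 (AT3G26520), a tonoplast water channel. A region of 12813 bp on chromosome 1 (6618254 to 6631066, 1.31 and 2.83, IDR 0.00474) covered JAZ1, a jasmonate repressor, and ARF19, an auxin response factor, with 4 further genes. Density in a region over several genes cannot be assigned to any of them.

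Genes induced early in stress were dense in the list and often covered whole. The 38 genes of this list were chosen with earlier results on these regions known, which had already shown CZF1, ERF4, CAF1a and other members as dense, so their high position is a description and not independent evidence. All 38 were overlapped by a region, against 65.3% of protein-coding genes. A region of the densest 10% lay within 1000 bp of 30 (78.9%), against 13.2% of genes, and 29 (76.3%) had a region with an IDR at or below 0.05, against 22.2%. In 34 (89.5%) a single region covered at least 80% of the gene, against 14.2%. Their median length was 1579 bp, against 2078 bp for all genes, and of the 20% of all genes between 1147 and 1789 bp long 21.9% (20.8 to 23.0) had such cover. The median percentile of the densest nearby region was 87.4 by the first-listed and 98.2 by the second-listed value, where all genes near a region had 63.3 and 66.3.

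Values for further members of this list show the same spread between the 2 values. Among zinc finger repressors, ZAT12 (AT5G59820) had 1.32 and 2.83, STZ (AT1G27730) 1.199 and 2.73, and ZAT6 (AT5G04340) 1.30 and 2.40. SZF1 (AT3G55980), the partner of CZF1 in salt responses, had 1.27 and 3.59. WRKY33 (AT2G38470), a regulator of camalexin synthesis and immunity, had 1.12 and 3.25, and WRKY40 (AT1G80840) 1.28 and 2.61. At WRKY33 the first-listed value stood at percentile 60.6, and the IDR of this region was 0.183. MYB44 (AT5G67300) had 1.42 and 2.57, and CBF2 and CBF3, cold-induced factors that stand side by side, shared a region at 1.24 and 2.24. RBOHD (AT5G47910), the oxidase that makes reactive oxygen in defence, had 1.19 and 2.53, and MPK3 (AT3G45640), a MAP kinase, 1.06 and 2.55. At MPK3 the first-listed value stood at percentile 36.3, and the IDR was 0.220. Lower members, chosen after their values were seen, were WRKY53 (AT4G23810) with 1.04 and 1.41, at percentile 23.9 of the list, WRKY46 (AT2G46400) with 1.24 and 1.41, and BT4 (AT5G67480) with 1.19 and 1.45.

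For comparison, all 10 housekeeping genes matched to the gene table were overlapped, against 65.3% of all genes, and 5 (50%) were covered over at least 80% of their length, against 14.2%. A region of the densest 10% lay near 2 (20%, against 13.2% of all genes). One with an IDR at or below 0.05 lay near 1 (10%, against 22.2%). A list of 10 genes is too short to tell these 2 shares from those of all genes. ACT7 (AT5G09810), an actin of growing tissue, had 1.21 and 1.98 and TUA2 (AT1G50010), an alpha tubulin, 1.11 and 2.15. UBQ10 (AT4G05320), a polyubiquitin gene, had 1.02 and 2.08. GAPC2 (AT1G13440), a glycolytic enzyme, had 1.07 and 1.36 and PP2AA3 (AT1G13320) 1.17 and 1.37. At UBQ10 the 2 values stood at percentiles of 17.6 and 96.5.

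Of the regulators that work with JKD in the ground tissue, all 12 matched to the gene table were overlapped, against 65.3% of all genes, and 2 of them, JKD and MGP, lie in wide blocks. A region of the densest 10% lay near 4 (33.3%, against 13.2% of all genes), which besides these 2 were SCR (AT3G54220) at 1.21 and 1.93 and SCL3 (AT1G50420), a GRAS factor that promotes gibberellin responses, at 1.28 and 1.77. An IDR at or below 0.05 was found near 6 (50%, against 22.2%), which were these 4, SHR and SCL23. SHR (AT4G37650) had 1.15 and 1.86. SCL23 (AT5G41920), the closest relative of SCR, had 1.21 and 1.71 in its densest nearby region, 98 bp away. The remaining members were lower. RBR1 (AT3G12280), the retinoblastoma homologue, had 1.03 and 1.77, AT1G14580, the locus of BLJ, 1.15 and 1.74, NUTCRACKER (NUC, AT5G44160) 1.02 and 1.64, MYB36 (AT5G57620), a regulator of endodermal differentiation, 1.05 and 1.59, the cyclin CYCD6;1 (AT4G03270) 1.10 and 1.45, and HSFB4 (AT1G46264), known as SCHIZORIZA, 1.03 and 1.48. The median percentile of the list was 84.2, against 67.4 for all genes near a region. These shares and this median include JKD and MGP, whose block densities do not stand for single genes. At JKD the part of the fusion gene was not tested. This list and the other gene lists were chosen with earlier results of these data known, so their shares and medians are a description.

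By the densest nearby region, epidermal patterning genes had a median percentile of 43.6 and all genes near a region 67.4. Genes of the quiescent centre, where the labels place the fusion as well, had 60.3. Of 12 epidermal patterning genes 9 (75%) lay within 1000 bp of a region, close to the 76.8% of all genes. None lay near a region of the densest 10%, against 13.2% of all genes. RHD6 (AT1G66470), which starts root hair growth, was the highest with 1.24 and 1.71, followed by SUB (AT1G11130), the receptor kinase SCRAMBLED that reads position in the epidermis, with 1.17 and 1.59. CPC (AT2G46410), a mobile MYB protein of hair cells, had 1.21 and 1.51. WER, MYB23 and TRY had no region within 1000 bp. Among the 12 genes listed for the quiescent centre and its stem cells, 8 (66.7%) had a region within 1000 bp, against 76.8%. None had one of the densest 10%, and lists of 12 genes are too short to tell this from the 13.2% of all genes. ACR4 (AT1G69040), a receptor kinase of stem cell divisions, had 1.13 and 1.77 in its densest nearby region, 967 bp away. A less dense region overlapped ACR4 itself. PLT1 (AT3G20840), an AP2 factor of the stem cell niche, had 1.23 and 1.52. WOX5, PLT3, ERF115 and RGF1 had no region within 1000 bp.

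Of 20 auxin genes 18 (90%) were near a region, against 76.8% of all genes, and 4 (20%) near a region of the densest 10%, against 13.2%. The median length of the auxin genes was 3496 bp, against 2078 bp for all genes. Of the longest 20% of all genes 14.9% lay near such a dense region. The 4 included PIN3, ARF19 and ARF7 (AT5G20730, 1.10 and 2.60). At ARF7 the first-listed value stood at percentile 51.4 with an IDR of 0.228, and the region at PIN3 overlapped 8.07% of the gene. ARF7 and ARF19 are response factors of lateral root formation, and the region at ARF19 is the wide one it shares with JAZ1. TIR1 (AT3G62980), an auxin receptor, had 1.34 and 1.62, while IAA17 (AT1G04250) had 1.02 and 1.52, and LAX3 and IAA5 had no region. Of 16 gibberellin genes 14 (87.5%) were near a region, against 76.8% of all genes, and 5 (31.2%) near a region of the densest 10%, against 13.2%. The 5 were the receptor GID1B (AT3G63010, 1.41 and 2.44), the inactivating enzyme GA2OX6 (AT1G02400, 1.24 and 2.39) and the DELLA repressors RGA1 (AT2G01570, 1.33 and 1.84), RGL3 (AT5G17490, 1.15 and 1.95) and RGL2 (AT3G03450, 1.202 and 1.82). GAI (AT1G14920), another DELLA protein, had 1.12 and 1.57. GA20OX1 and GA2OX1 had no region.

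**Figure D5:**
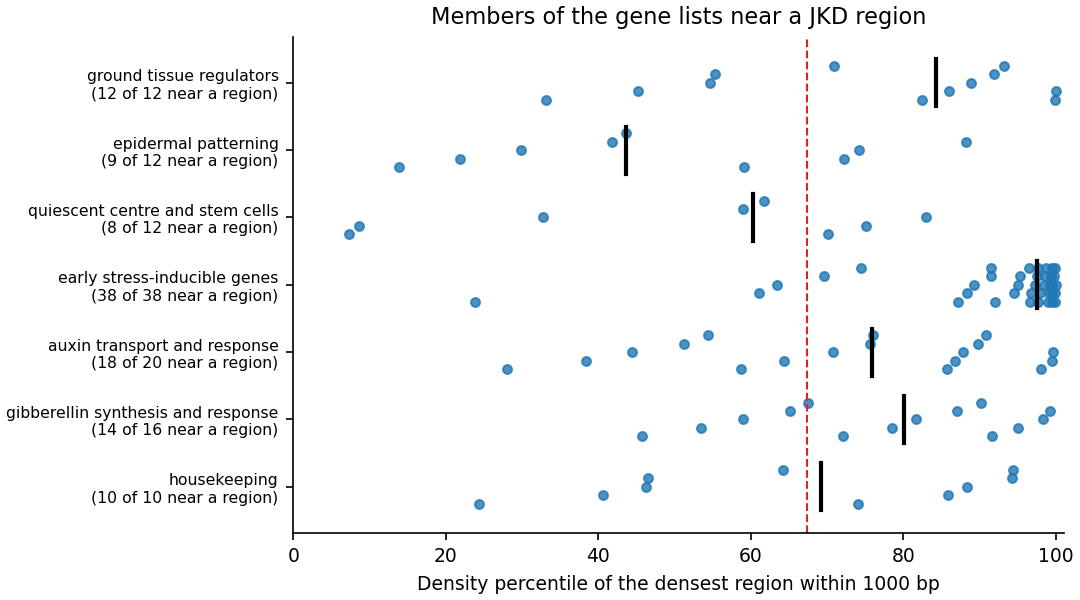
Density percentile (x axis) of the densest JKD region within 1000 bp of each member of 7 gene lists, for members that have such a region, with black bars at the list medians and a red dashed line at the median of all genes near a region, 67.4. Early stress-inducible genes have a median of 97.6, ground tissue regulators (with JKD and MGP, which lie in wide blocks) 84.2 and epidermal patterning genes 43.6. The lists were chosen with earlier results of these data known.

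Gene names also gave classes of function, each limited to genes whose symbol or synonyms carry the words. The classes were chosen with earlier results of these data known, so their shares are a description and not independent evidence. Of 62 genes named for heat shock or chaperones, 22 (35.5%) lay near a region of the densest 10%, where the share of all genes was 13.2%. They included HSF4 (AT4G36990), the class B heat shock factor HSFB1, with 1.42 and 2.94, HSFC1 (AT3G24520) with 1.28 and 2.37 and the chaperone HSC70-1 (AT5G02500) with 1.23 and 2.31. Such a region lay near 18 of 72 calcium sensor genes, among them CML23 (AT1G66400, 1.17 and 2.30) and the calmodulin CAM3 (AT3G56800, 1.197 and 2.25), and near 22.3% of 264 genes named as transcription factors or DNA-binding proteins. The share was 18.3% of 218 ubiquitin and F-box genes, among them UBQ11 (AT4G05050, 1.28 and 3.06) and the immune ubiquitin ligase PUB23 (AT2G35930, 1.27 and 2.69), 18.1% of 232 cytochrome P450 genes and 17.8% of 583 kinases.

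For 5 further classes the share was close to that of all genes. It was 16.7% of 60 zinc finger genes, 14.7% of 367 transporters, 14.6% of 41 protein phosphatases and 13.7% of 117 glycosyl enzymes. For 32 genes with hypothetical or unknown in a name it was 12.5%, and this class rests on the name alone. Ribosomal proteins were the lowest of the classes with at least 13 genes, at 6 of 67 (8.96%), although 50 of the 67 (74.6%) were overlapped by a region. Of 13 genes named for disease resistance 4 (30.8%) had a region of the densest 10% nearby, against 13.2% of all genes, among them RPP5 (AT4G16950, 1.11 and 2.39) and EDR2 (AT4G19040, 1.54 and 2.42), of which EDR2 is not a receptor. At RPP5 the first-listed value stood at percentile 58.1, and the IDR was 0.130. The classes for histones and transposable elements held 0 and 1 genes and are not described.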

How the data were processed

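ChIP-seq libraries of 2 JKD_YFP replicates and 1 wild-type control were made from immunoprecipitated DNA that was amplified linearly and tagged by transposon insertion, with single-end reads of 50 bases, per the labels' protocols. The labels' design text speaks of 2 control replicates, whereas the samples hold 1. CASAVA and Bowtie were used with build TAIR9, per the submitters' processing notes. Their versions, the peak caller, the normalization, the use of the control and the depth of the libraries are likewise not given in the sources consulted here. The density signal is the authors' value per region, with 2 values in each cell per the file headers, and no source says which replicate each belongs to. The deposited IDR, also per the file headers, gives how well a region was reproduced by the replicates, was computed by the authors and is read like a q-value. Values of the control library and the regions of BLJ were not analysed here.

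The score of a region was the mean log2 of both values. The 27444 nuclear protein-coding genes of NCBI's table for assembly TAIR10.1 served for names and neighbours. Cover by the TAIR9 regions changed most steeply at 0 bp from the gene edges of that table, and every printed coordinate is that of a deposited region. A gene was near a region if the region overlapped it or the 1000 bp on either side by at least 1 bp. A wide block joined all 40000 bp windows, taken every 1000 bp, of which regions covered at least 90%. Shares have 95% Wilson intervals. Counting of overlaps and blocks was tested on simulated intervals. The software was numpy 2.4.6, scipy 1.17.1 and pandas 2.3.3 under Python 3.11.15, with matplotlib 3.10.9 for plots.

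The gene lists and name classes were chosen with earlier results of these data known. Named genes are the 30 leading genic targets, the genes at the 10 highest, 10 widest and 10 lowest-IDR regions, those at the 5 most discordant regions in each direction, up to 6 members per list with those that have no region, and up to 4 per class. Other genes named were chosen after their values were seen. Of the list members, BIB and EF1ALPHA had no match by name in the gene table and were not analysed here. A planned count of the IDD motif in promoters was not run, since no promoter sequence was used here. The values of 1 auxin gene are not reported here.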

Additional observations from a re-analysis of the deposited data

How the results depend on the processing

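Midpoints lay inside protein-coding genes in 78.3% of regions, also without the wide blocks. The share was 71.3% with an IDR at or below 0.05, 75.1% at or below 0.1 and 74.9% among the denser 50% of regions, and 87.6% of regions overlapped a gene by at least 1 bp. The share of genes near a region was 76.8%, or 76.4% without the blocks. It was 22.2% and 40.8% under the same IDR limits, 53.3% with the denser 50%, 65.3% at a distance of 0 bp, 83.5% at 2000 bp and 75.8% with an overlap of at least 100 bp, so it follows the number of regions kept and the distance allowed. The rank correlation of 0.407 between the 2 values was 0.408 without the blocks, 0.411 without the chromosome 2 stretch (chosen after seeing the data), 0.317 with an IDR at or below 0.05 and 0.372 for regions under 2000 bp, and Pearson's r of the log2 values was 0.442. Of the 30 leading genes, between 8 and 24 stayed among the leading 30 when 1 of the 2 values was left out, and 16 stayed by the mean of the ranks and 16 by the lower rank. An IDR limit of 0.05 could remove none of the 30, whose highest IDR was 0.0288, so that all 30 stayed was fixed in advance. With genes in wide blocks kept, 1 stayed, as those genes fill the other places. No paired analysis was possible because the list is made from both replicates and its values carry no replicate number. Depth is unknown and no control values were used here, which limits every density given.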

Other observations

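The 2 density values were written with different precision. The first-listed value had more than 7 decimals in 21975 of 21985 regions, and the second-listed value in 24. The cause was not tested.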
